A study of Mus musculus with 10 samples.

Results

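The sites described here are promoters at which the erythroid activator KLF1 had a peak and the repressor KLF3 had none. They were taken from the authors' list of KLF1 peaks: every peak annotated as promoter whose interval shared no base with any interval of the authors' KLF3 list. The rule found 325 of the 1200 KLF1 promoter peaks. The whole series lists 3800 KLF1 peaks and 8379 peaks of both factors. Several peaks shared an interval or a gene, so the 325 peaks covered 316 distinct intervals and were assigned to 309 genes. The sites were chosen by the measured presence of a KLF1 peak and absence of a KLF3 peak, so the peak values below are a description and were not tested.

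The series was made in mouse erythroid cell lines. KLF1 chromatin came from K1-ER cells, clones A and C, which are erythroblasts that lack KLF1 and carry a KLF1 fusion to the estrogen receptor domain. It was recovered with an antibody to KLF1. KLF3 chromatin came from 1 clone, clone C, of J2E-KLF3-ER, the fetal liver erythroid line J2E carrying a KLF3 fusion to the same domain, with an antibody to the estrogen receptor. Both lines received 200 nM 4-hydroxytamoxifen, which activates the fusions, for 3 h, and each had its own input library. Each chromatin library pooled 3 replicates. Newly made RNA, labelled for 30 min with 4-thiouridine, was sequenced in 3 J2E libraries without a transgene and in 3 libraries of J2E-KLF3-ER, made from its clones A, C and E. The sample labels give tamoxifen for all but 1 of the RNA libraries, a J2E library labelled as ethanol-treated, although its treatment protocol names tamoxifen. No RNA of K1-ER cells was analysed here, so the erythroid identity of the cells behind the KLF1 peaks could not be checked.

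KLF1 is a zinc finger activator that red cell precursors need for the genes of globin, heme synthesis and the red cell membrane. KLF3 has closely related zinc fingers and binds the same kind of GC-rich and CACCC-type sequences, but it recruits the corepressor CtBP. KLF1 is also known to drive the Klf3 gene, so a promoter that carries both factors can receive activating and repressing input, and the sites below had only the KLF1 peak in these lists.

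Of the promoters with the highest KLF1 peaks, those of Fah, Slc9b2 and Rgcc are shown, because all 3 had KLF1 peaks among the 10 highest of the set while the genes were nearly silent in J2E. Fah encodes the last enzyme of tyrosine breakdown, Slc9b2 a sodium/proton exchanger and Rgcc a regulator of the cell cycle. The 200 bases before the start site are from RefSeq, GRCm38.p6, at chr7:84605943-84606142 on the minus strand for Fah, chr3:135307500-135307699 on the plus strand for Slc9b2 and chr14:79301636-79301835 on the minus strand for Rgcc. Each is written 5′ to 3′ along the gene, and capitals mark every match on either strand to CCNCNCCC, the core of the sequence that KLF factors recognise.
Fah: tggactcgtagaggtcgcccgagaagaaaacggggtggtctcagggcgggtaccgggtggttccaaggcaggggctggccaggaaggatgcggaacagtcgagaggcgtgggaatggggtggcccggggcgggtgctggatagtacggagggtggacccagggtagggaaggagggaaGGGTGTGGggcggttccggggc
Slc9b2: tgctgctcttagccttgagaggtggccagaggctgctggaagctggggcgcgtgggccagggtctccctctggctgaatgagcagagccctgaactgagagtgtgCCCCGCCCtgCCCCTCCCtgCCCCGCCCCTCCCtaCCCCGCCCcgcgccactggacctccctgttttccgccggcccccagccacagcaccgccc
Rgcc: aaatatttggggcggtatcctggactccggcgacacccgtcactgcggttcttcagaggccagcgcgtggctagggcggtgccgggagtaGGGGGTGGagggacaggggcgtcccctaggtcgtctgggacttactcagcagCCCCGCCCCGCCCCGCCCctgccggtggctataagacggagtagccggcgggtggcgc
The Fah window held 1 match, starting 22 bases before the start site. Slc9b2 held 5 matches between 95 and 60 bases before it, and Rgcc held 4. The KLF1 summit lay 16 bp downstream of the Fah start site, 26 bp upstream of that of Slc9b2 and 86 bp upstream of that of Rgcc in the authors' mm9 annotation, whose start sites may differ from those of RefSeq.

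Glipr2 and Tgfb1 are shown because they had the highest KLF1 peaks among the genes of the set whose RNA fell in J2E-KLF3-ER. Glipr2 encodes a Golgi-associated protein and Tgfb1 a growth factor. Their windows lie at chr4:43957502-43957701 and chr7:25686802-25687001, both on the plus strand of GRCm38.p6, with matches to CCNCNCCC again in capitals.
Glipr2: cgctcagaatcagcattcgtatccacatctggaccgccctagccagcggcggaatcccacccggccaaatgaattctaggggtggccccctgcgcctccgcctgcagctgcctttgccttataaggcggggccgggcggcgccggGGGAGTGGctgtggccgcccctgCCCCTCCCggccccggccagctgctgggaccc
Tgfb1: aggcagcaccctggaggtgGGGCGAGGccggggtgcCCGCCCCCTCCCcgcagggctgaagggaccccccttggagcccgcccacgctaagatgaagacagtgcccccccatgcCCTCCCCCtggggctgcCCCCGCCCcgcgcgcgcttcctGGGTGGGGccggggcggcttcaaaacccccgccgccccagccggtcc
Glipr2 held 2 matches and Tgfb1 held 6. The higher KLF1 summit of Glipr2, 175 bp upstream of the start site, lay 120 bases from the start of the nearest match. The KLF1 summit of Tgfb1, 194 bp upstream of the start site, lay 13 bases from the start of the nearest match.

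Hba-a1, an alpha-globin gene, and Kel, a blood group gene of the red cell surface, stand for the erythroid promoters of the set. Hba-a1 was also assigned a KLF1 promoter peak shared with KLF3. The KLF3 interval nearest to its peak with KLF1 alone lay 12517 bp away. No CCNCNCCC match was found in these 2 windows, so capitals mark the shorter CACCC, on either strand, a choice made after the sequences were seen. The windows lie at chr11:32283472-32283671 on the plus strand and chr6:41704326-41704525 on the minus strand of GRCm38.p6.
Hba-a1: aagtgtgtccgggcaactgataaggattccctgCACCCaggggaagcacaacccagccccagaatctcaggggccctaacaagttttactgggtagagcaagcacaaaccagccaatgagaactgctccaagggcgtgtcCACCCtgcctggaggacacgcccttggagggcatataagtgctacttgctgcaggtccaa
Kel: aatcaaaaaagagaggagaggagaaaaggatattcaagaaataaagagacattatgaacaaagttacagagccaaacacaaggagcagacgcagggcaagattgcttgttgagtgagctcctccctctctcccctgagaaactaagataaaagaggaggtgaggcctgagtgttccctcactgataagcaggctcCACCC
Hba-a1 held 2 CACCC matches, of which the nearer to the start site began 60 bases before it, 14 bases from the KLF1 summit. Kel held 1 match, which began 5 bases before the start site and 11 bases from the summit. Kel and Hba-a1 were also the CpG-poor end of the sequences shown: the ratio of observed to expected CpG over the 300-base RefSeq promoter was 0.061 for Kel and 0.19 for Hba-a1, against 0.79 for Fah and 0.81 for Rgcc.

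RefSeq promoters, 250 bases before to 50 after the start site, were found for 236 of the 309 genes and numbered 335. All listed promoters of a gene were counted, whether or not a peak lay in them. A promoter was taken as CpG-rich when the CpG ratio was at least 0.6 and the GC content above 50%. Of the 335 promoters 56.4% were CpG-rich (95% exact interval 50.9 to 61.8). The share was 74.9% for promoters of genes with a shared promoter peak (71.9 to 77.7). It was 79.3% for promoters of genes with a promoter peak of KLF3 alone (77.5 to 80.98) and 33.3% over all 32851 RefSeq promoters. The intervals cover counting error only. The promoters of the set's genes therefore lay below those of both KLF3 sets in CpG content and above the genome at large. Among genes with a single listed promoter the shares were 64.7%, 85.2% and 86.4%. Among genes with the KLF1 summit inside the promoter window, the share was 48.3% without KLF3 and 72.0% with it. Expression moved with this value: within the set, 44.3% of promoters of genes under 1 FPKM in J2E were CpG-rich, against 61.3% of those at 1 FPKM or more. For promoters of genes with a shared promoter peak these shares were 67.3% and 75.4%.

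**Figure D1:**
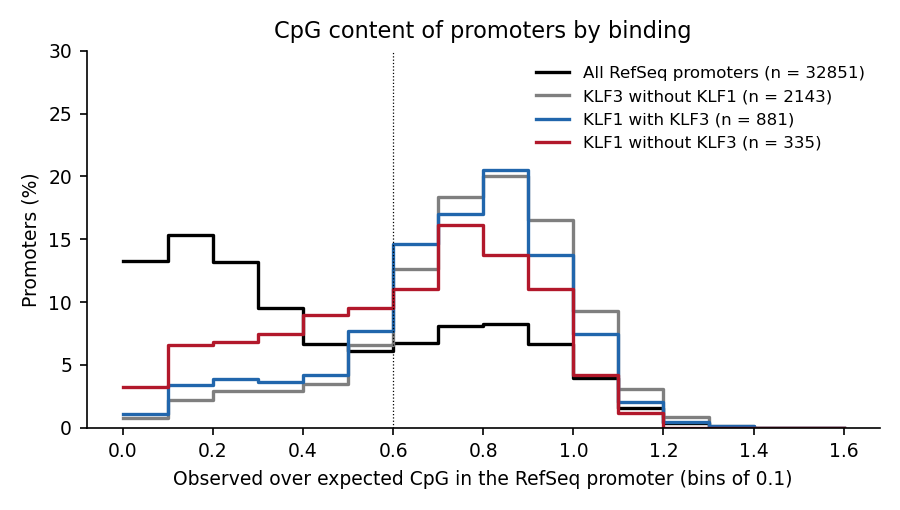
Share of RefSeq promoters (percent) in each bin of the ratio of observed to expected CpG. Shown are all listed promoters of genes with a promoter peak of KLF1 without KLF3 (335), of both (881) and of KLF3 without KLF1 (2143), and all 32851 promoters. The dotted line marks 0.6, and the median ratios are 0.67, 0.77, 0.80 and 0.38 in that order.

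Short sequence matches were counted on both strands of the same 300-base windows. These again include all listed promoters of each gene, and the sets are named by the promoter peaks of their genes. CCNCNCCC was found in 88.1% of the promoters with KLF1 alone, 86.6% of those with both factors, 81.6% of those with KLF3 alone and 49.5% of all promoters. In that order the median GC content of the windows was 63.7%, 65.3%, 64.0% and 52.7%. Its part in the shares of this and the other matches was not tested. CACCC, which some CCNCNCCC matches contain, was found in 80.0%, 73.7%, 68.2% and 57.5%. The longer CCACACCC, the form known from the beta-globin promoter, was rarer, at 6.57%, 7.15%, 4.71% and 3.56%. CCGGAAG, an ETS-type sequence, was in 9.85% of the promoters with KLF1 alone, 15.7% of those with both, 20.02% of those with KLF3 alone and 8.86% of all. CCAAT was in 28.4%, 34.2%, 39.5% and 37.4%, and the GATA-type AGATAA in 5.37%, 6.36%, 4.34% and 11.2%. TATAAA was in 5.07% and TGACTCA in 3.28% of the promoters with KLF1 alone, against 13.6% and 5.20% of all promoters. CCNCNCCC matches were thus about as frequent with and without KLF3, while ETS-type matches were fewest, among the 3 bound sets, in the promoters with KLF1 alone. The windows are those of RefSeq and not the peak intervals, and a match is not a binding site.

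The KLF1 peaks of the set had a median enrichment of 9.63, with quartiles of 7.14 and 13.95 and a range from 4.55 to 51.7. Enrichment is the authors' ratio for each peak, and its denominator is not stated in their list. KLF1 promoter peaks shared with KLF3 had a median of 10.9 and reached 80.9. No peak of the set was among the 10 highest KLF1 promoter peaks, and the set held 2 of the top 25, 11 of the top 100 and 105 of the top 500. The median interval was 292 bp long, against 336 bp for shared promoter peaks.

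The 10 genes with the highest KLF1 peaks of the set were Ndrg2 (enrichment 51.7), Fah (49.3), the inositol phosphate kinase gene Ip6k2 (46.3), the fatty acid elongase gene Elovl1 (42.9), Slc9b2 (39.1), the membrane transporter gene Slc4a11 (38.3), Nfe2l1 (34.4), Hba-a1 (32.9), Nab1 (31.7) and Rgcc (31.1). Nfe2l1 encodes an activator of proteasome genes, and Nab1 a corepressor of EGR factors. On mm9 the Ndrg2 peak lay at chr14:52532855-52533400, with its summit 51 bp downstream of the start site, and the Fah peak at chr7:91754137-91755184. The peaks of Slc9b2 and Slc4a11 lay at chr3:134970391-134970878 and chr2:130523100-130523592. The lowest peaks included those of the semaphorin gene Sema4a (4.76) and of Abhd15 (4.55).

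Summits lay mostly just upstream of the start site: 84.6% were upstream, and the median distance was 169 bp. Shared promoter peaks had a median of 111 bp and KLF3 promoter peaks without KLF1 82 bp. Of the peaks with KLF1 alone, 36.3% had the summit within 100 bp of the start site, 63.1% within 250 bp and 77.2% within 500 bp. Of the shared peaks, 47.4%, 76.5% and 92.6% did. The set therefore held more sites in the outer part of the promoter, beyond 500 bp.

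**Figure D2:**
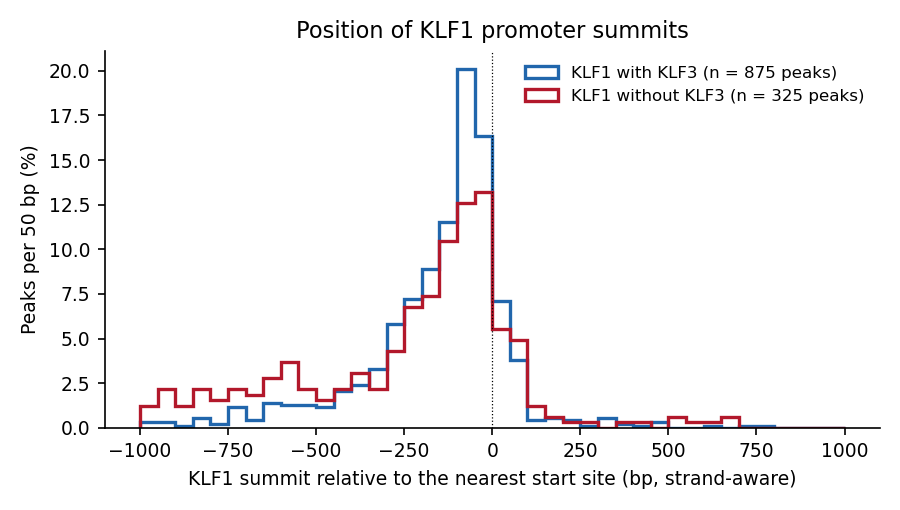
Position of KLF1 summits relative to the nearest start site (bp, negative values upstream), as the percent of peaks in each 50 bp, for 325 promoter peaks without KLF3 and 875 with KLF3. Both sets peak just upstream of the start site, and 77.2% of the peaks without KLF3 and 92.6% of those with it lie within 500 bp.

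Most of the sites were far from any listed KLF3 peak. KLF1 and KLF3 were mapped in different lines with different antibodies. A site that KLF3 leaves free and a difference between lines or antibodies therefore cannot be told apart. The gap to the nearest KLF3 interval had a median of 47134 bp. It was over 10 kb for 248 sites (76.3%), 1 to 10 kb for 32 and at most 1 kb for 45 (13.8%). The nearest were the promoters of Ccng2, encoding cyclin G2 (66 bp from a KLF3 interval, KLF1 enrichment 5.15), Rbck1, a ubiquitin ligase subunit (186 bp, 21.5), and Tgfb1 (189 bp, 18.4). On the other side of the rule, the smallest overlaps among shared promoter peaks were at Lnx2 (51 bases), D830031N03Rik (65 bases) and Mef2a (112 bases). The Gata1 promoter also lay near this edge. Gata1 encodes the master factor of the lineage, and its site with KLF1 alone, 637 bp upstream with an enrichment of 8.66, was 252 bp from a KLF3 interval. A KLF3 peak somewhere was assigned to 66 of the 309 genes, including 16 that had a second, shared promoter peak and 17 with a promoter peak of KLF3 alone. Among those 16 were Gata1, Elovl1, Nfe2l1, Hba-a1, Plec and Midn.

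The set held more than 1 listed KLF1 peak for 15 genes. The adhesion gene Igsf8 had 3, with enrichments of 11.7, 11.3 and 5.76, and the others, such as Ndrg2, Glipr2, the antigen loading gene Tapbp and the homeobox gene Dlx1, had 2. In the cytoskeletal linker gene Plec the 2 peaks lay at different start sites, with summits 106 and 98 bp upstream. In 135 of the 309 genes the authors assigned 2 or more KLF1 peaks in all, counting introns and distal sites.

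The authors' KLF1 list also carries a class, up, down or no, for each gene in a comparison of K1 with K1ER. How the class was made, and which way it is coded, is not given in the sources used here. As a check of the coding, of 21 textbook KLF1 targets with a KLF1 peak 12 were classed up and 0 down. Among the 309 genes of the set 90 were classed up, or 29.1% (95% exact interval 24.1 to 34.5), beside 14.0% of the 2773 genes nearest to any KLF1 peak. Only 1, 1700026L06Rik, was classed down, beside 0.577% of the 2773. The share of up genes was 16.4% for promoter peaks shared with KLF3 (13.9 to 19.1), 14.8% for KLF1 intron peaks without KLF3 (12.6 to 17.2) and 15.0% for such distal peaks (12.2 to 18.1). The interval of the promoters with KLF1 alone thus lay above those of the other KLF1 sets given here. Intron and distal KLF1 peaks shared with KLF3, and exon peaks, were not counted as sets of their own. The 16 genes with both kinds of promoter peak count in both sets, and without them the shares were 29.7% and 16.4%. The intervals treat genes as independent.

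**Figure D3:**
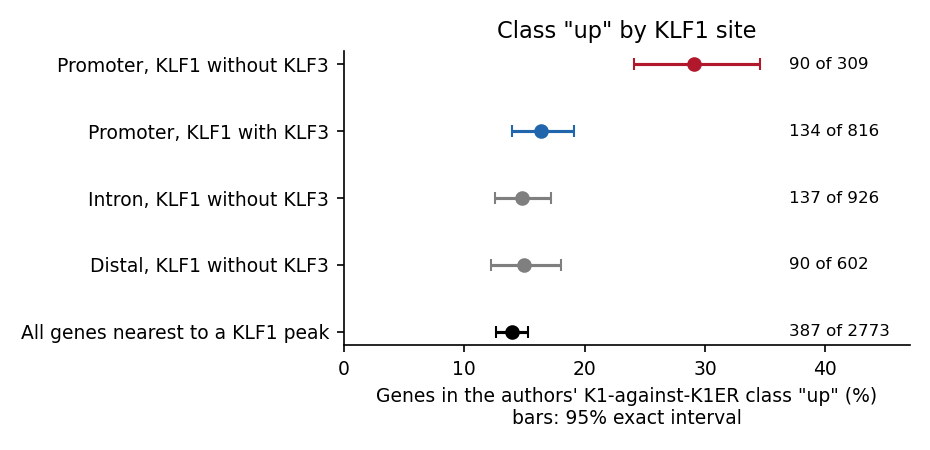
Share of genes (percent) in the authors' K1-against-K1ER class up, by kind of KLF1 site, with 95% exact intervals as bars and the number of genes at the right. Promoters with KLF1 without KLF3 lie at 29.1%, and the other kinds shown between 14.8% and 16.4%, near the 14.0% of all genes nearest to a KLF1 peak.

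The number of KLF1 peaks of a gene moved with its class. Of genes with a single KLF1 peak, 31 of 174 in the set were classed up (17.8%, 12.4 to 24.3) and 68 of 572 with a shared promoter peak (11.9%, 9.35 to 14.8), so these intervals overlapped. Of genes with 2 or more KLF1 peaks the shares were 43.7% (35.2 to 52.5) and 27.0% (21.6 to 33.1).

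Peak height moved with the class in both sets. With genes of KLF1 promoter peaks cut into 3 bins by their highest peak, at enrichments of 8.75 and 14.4, the share was 24.6% in the lowest, 26.4% in the middle and 40.3% in the highest bin of the set. For genes with a shared peak it was 7.09%, 12.5% and 27.9%, and so lower than without KLF3 in each bin. The share without KLF3 was also the higher one in each of 4 bins of RNA level in J2E. Under 1 FPKM it was 22.4% (22 of 98) without KLF3 and 5.08% (3 of 59) with it, and at 20 FPKM or more it was 32.1% and 14.3%. Within the set the share was 34.9% for genes within 1 kb of a KLF3 interval (15 of 43), 48.4% at 1 to 10 kb (15 of 31) and 25.5% beyond 10 kb (60 of 235).

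The up genes of the set included Slc4a11, Nfe2l1 and Nab1 among its highest peaks. Among genes of heme synthesis and iron, the up genes included Abcb10, a mitochondrial transporter needed for heme synthesis (enrichment 13.2), and Steap3, the iron reductase of endosomes (10.4). Of 6 red cell membrane and blood group genes 4 were classed up, namely glycophorin C, Gypc (15.7), the water channel gene Aqp3 (14.7), the Rh blood group gene Rhd (8.49) and Tmcc2 (6.26). The tropomodulin gene Tmod1 (19.2) and Kel (8.72) were not. Both immediate early genes, Fosl2 (26.4) and Nr4a1 (6.97), were up, as were the KLF family gene Klf13 (18.1), the lysosomal regulator gene Tfeb (9.20), the red cell pyruvate kinase gene Pklr (5.39) and Fam132a, which encodes the secreted protein adipolin (9.82). Gata1, the cell cycle genes Cdk1 (6.05) and Rb1 (22.0) and the corepressor gene Ctbp1 (12.2) were not.

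RNA was compared with the authors' deposited table, which holds 1 pooled FPKM value per line (fragments scaled for transcript length and for the size of the library) and no value per library, so no error can be set beside a value and the depth is unknown. The genes of the set had lower output in J2E than those of both promoter sets with KLF3, but higher output than genes at large. Their median was 3.46 FPKM by the authors' deposited table, against 11.1 FPKM for genes with a shared promoter peak, 11.4 FPKM for promoters with KLF3 alone and 0.897 FPKM over all 23309 genes. Of the 309 genes 98 (31.7%) lay under 1 FPKM and 26 were listed at 0 in the authors' deposited table. The shares under 1 FPKM were 7.23% for shared promoters and 5.33% for KLF3 alone in the authors' deposited table. Genes of KLF1 distal and intron peaks without KLF3 also lay below the promoter sets with KLF3. Their medians were 4.42 and 6.47 FPKM, and 34.1% and 26.3% lay under 1 FPKM, in the authors' deposited table.

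Low output went with high peaks and near summits in the set. In the same 3 bins of enrichment, 24.6%, 33.0% and 41.6% of the genes of the set were under 1 FPKM by the authors' deposited table, against 7.87%, 5.66% and 8.08% of genes with a shared peak. Of the 20 genes with the highest peaks of the set 9 were under 1 FPKM by the authors' deposited table, against 1 of the 20 with the highest shared peaks. By distance of the summit from the start site, the share under 1 FPKM by the authors' deposited table was 44.9% within 100 bp, 35.7% at 101 to 250 bp and 14.0% farther out. The silent genes with high peaks included Slc9b2 at 0 FPKM, Rgcc at 0.285, Ndrg2 at 0.335 and Fah at 0.463 in the authors' deposited table. Slc4a11 stood at 2.06, Nfe2l1 at 14.9, Nab1 at 18.2, Elovl1 at 23.3 and Ip6k2 at 24.3 FPKM in the same authors' deposited table. The KLF1 peaks are from K1-ER cells and the RNA is from J2E, so a difference between the lines and a bound but silent promoter cannot be told apart.

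**Figure D4:**
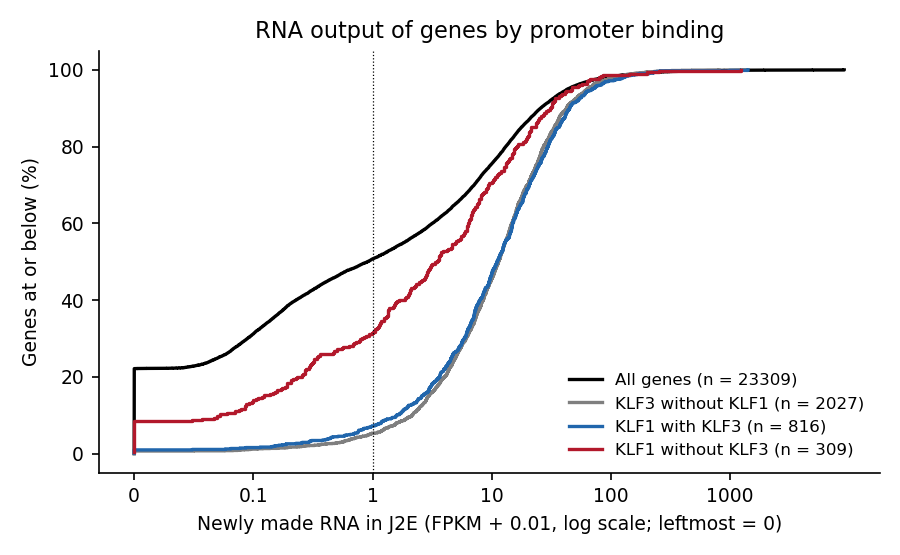
Cumulative share of genes (percent) by newly made RNA in J2E (FPKM of the authors' deposited table, log axis), for promoters with KLF1 without KLF3 (309 genes), with both (816), with KLF3 without KLF1 (2027) and for all 23309 genes. At 1 FPKM, the dotted line, the curve of KLF1 without KLF3 stands at 31.7%, above the 7.23% of shared promoters and below the 50.8% of all genes.

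The most active genes of the set were the translation factor gene Eef1a1 at 1236 FPKM, the proliferation marker gene Mki67 at 255 FPKM and the ribosomal protein gene Rpsa at 201 FPKM in J2E in the authors' deposited table. In J2E-KLF3-ER these stood at 1358, 185 and 186 FPKM by the authors' deposited table, and none was called, Mki67 having an authors' q of 0.0873. Hba-a1 has a near-identical copy, and the authors' deposited table has a row that joins both names, at 0.0208 FPKM in J2E and 4.07 FPKM in J2E-KLF3-ER (authors' q = 0.664), while a separate row for Hba-a2 stands at 133 and 103 FPKM (authors' q = 0.373). How fragments were divided between the copies is not stated, so the level of Hba-a1 itself is uncertain.

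J2E expressed most erythroid markers, as 10 of 11 rows of a marker list reached 1 FPKM by the authors' deposited table, their sum going from 595 FPKM in J2E to 417 in J2E-KLF3-ER. Megakaryocyte markers reached 1 FPKM in 3 of 5 rows (sum 157 and 176), myeloid in 4 of 6 (30.6 and 23.6) and progenitor in 1 of 4 (57.3 and 74.2) in the authors' deposited table, and mast cell and lymphoid markers in none of 4 each. Klf3 went from 7.46 to 180 FPKM, and Klf1 fell from 122 FPKM to 55.6 FPKM, by the authors' deposited table. The part of lower Klf1 RNA and of the marker levels in the changes below was not tested. No library of the fusion line lacked tamoxifen, so differences between the lines and activation of the fusion cannot be told apart in this comparison.

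More genes of these promoters fell than rose in J2E-KLF3-ER. The authors tested 166 of the 309 genes. At the authors' q-value below 0.05, 9 fell (5.42%, 95% exact interval 2.51 to 10.0) and 1 rose in the authors' deposited table, beside 1.90% falling and 0.821% rising over all 9619 tested genes. In either direction 10 of the 166 were called, beside 2.72% of the 9619, in the authors' deposited table. Among those with a finite value the median log2 fold change was -0.14 by the authors' deposited table, and 107 of them (64.8%) were below 0. Over all tested genes the median was 0.03 and 46.5% were below 0 in the authors' deposited table. For genes with a promoter peak shared with KLF3, 63.8% were below 0 in the authors' deposited table.

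Promoters shared with KLF3 gave a near value: 33 of 685 tested genes fell (4.82%, 3.34 to 6.70), 2 rose and the median was -0.10 in the authors' deposited table. Where KLF3 was alone at the promoter, 30 of 1759 fell (1.71%, 1.15 to 2.43), 10 rose and the median was 0.01 in the authors' deposited table. Genes with no peak of either factor fell in 77 of 5927 cases (1.30%) and rose in 59 in the authors' deposited table. Away from promoters, genes of KLF1 distal peaks without KLF3 fell in 16 of 331 cases (4.83%, 2.79 to 7.73) and those of such intron peaks in 18 of 596 (3.02%, 1.80 to 4.73), with medians of -0.02 and -0.01, in the authors' deposited table. The share of falling genes was thus above that over all tested genes in each of these KLF1 sets, promoter or not. The interval for intron peaks, however, included the 1.90% of all tested genes. For promoters with KLF3 alone the share was near that of all tested genes. Intron and distal KLF1 peaks shared with KLF3, and exon peaks, were not counted as sets of their own.

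Of the 9 fallers 6 were classed up. Of 54 tested genes of the set classed up, 6 fell and 1 rose, with a median log2 fold change of -0.21 by the authors' deposited table. Of 112 classed no, 3 fell and none rose, with a median of -0.10 in the authors' deposited table. At an unadjusted p below 0.05, 4 of the 112 were higher and 12 lower in the authors' deposited table. For shared promoters the corresponding medians were -0.31 (16 of 115 fell) and -0.08 (17 of 568 fell) in the authors' deposited table. Over all genes near a KLF1 peak and classed up, 43 of 291 fell (14.8%) in the authors' deposited table.

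Tgfb1 had the highest output of the falling genes. It fell from 85.8 FPKM in the parent line to 49.5 with the fusion, a log2 fold change of -0.79 (authors' q = 0.00408) by the authors' deposited table. Its KLF1 promoter peak, at chr7:26471700-26471968 on mm9, lay 189 bp from a KLF3 interval that the authors annotate to its UTR. Glipr2 went from 8.95 to 4.44 FPKM, a log2 fold change of -1.01 (authors' q = 0.0396) by the authors' deposited table, and its 2 listed summits, with enrichments of 20.4 and 5.24, lay 210369 bp from the nearest KLF3 interval.

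Midn, which encodes a nuclear protein that takes other proteins to the proteasome, fell from 31.8 to 16.2 FPKM (log2 fold change -0.97) in the authors' deposited table. Its KLF1 summit was at the far edge of the promoter, 997 bp upstream, and a KLF3 interval in an intron lay 584 bp away. Midn also had a second promoter peak that was shared with KLF3, and without the genes of this kind 8 of 151 fell (5.30%, 2.31 to 10.2) by the authors' deposited table. Bahd1, a heterochromatin protein gene, fell from 25.7 to 16.2 FPKM (-0.66) by the authors' deposited table, with a KLF3 interval 976 bp from its peak. Tprgl fell from 20.4 to 9.06 FPKM (-1.17) by the authors' deposited table, and its peak was 905317 bp from any KLF3 interval.

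The red cell genes among the fallers were Kel and Pklr. Kel went from 32.7 to 20.8 FPKM, a log2 fold change of -0.66 (authors' q = 0.0213), in the authors' deposited table. Its only KLF1 peak, at chr6:41654206-41654453 on mm9, is the one with the CACCC match shown above, and the nearest KLF3 interval was 560410 bp away. Pklr fell from 27.2 to 15.9 FPKM (-0.78, authors' q = 0.00707) by the authors' deposited table, with the summit 2 bp from the start site and a distal KLF3 peak of its own 3265 bp away.

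The lysosomal sialidase gene Neu1 fell from 47.3 to 32.4 FPKM (-0.55, authors' q = 0.0435) by the authors' deposited table. Isg20, an interferon-induced exonuclease gene, fell from 6.96 to 1.505 FPKM (-2.21, authors' q = 0.0496) by the authors' deposited table and lay nearest to the threshold. Podxl, a sialomucin of the cell surface, was the gene that rose, from 1.09 to 3.60 FPKM (1.72, authors' q = 0.00408), by the authors' deposited table. It was classed up and had no KLF3 interval within 165056 bp.

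Of the 9 fallers 5, namely Glipr2, Tprgl, Kel, Neu1 and Isg20, had no KLF3 peak assigned at any site and lay over 10 kb from a KLF3 interval. The other 4, Tgfb1, Midn, Bahd1 and Pklr, had KLF3 peaks elsewhere in or near the gene. Among all tested genes of the set, 5 of 115 without any KLF3 peak fell (4.35%, 1.43 to 9.85) and 4 of 51 with one (7.84%, 2.18 to 18.9) in the authors' deposited table. The medians of these were -0.13 and -0.17 in the authors' deposited table, so values below 0 were not limited to genes with a KLF3 peak nearby. Just outside the threshold was Capg, an actin capping protein gene named after its values were seen, at 6.14 and 2.30 FPKM (-1.42, authors' q = 0.0553) by the authors' deposited table.

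**Figure D5:**
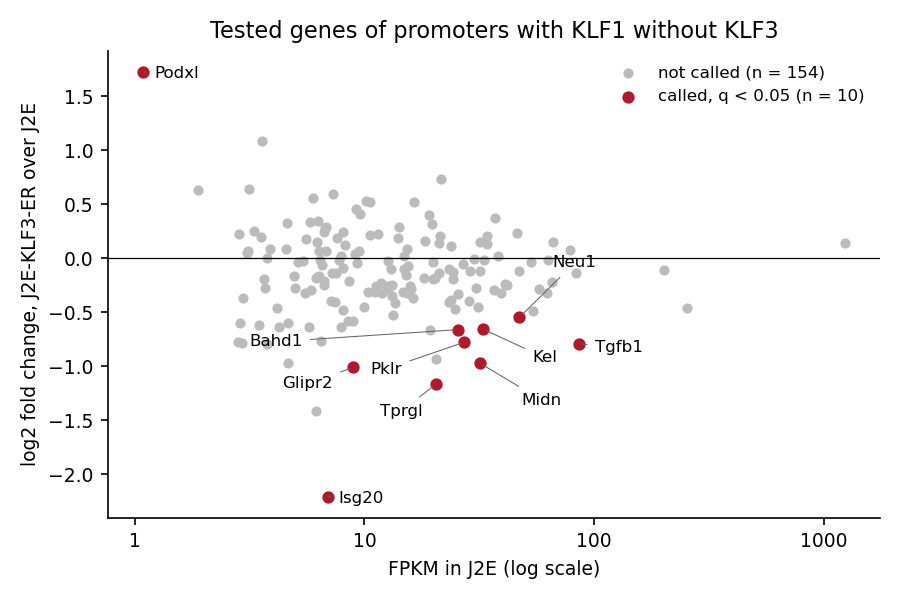
Log2 fold change, J2E-KLF3-ER over J2E, against FPKM in J2E (log axis) for tested genes of promoters with KLF1 without KLF3, from the authors' deposited table. The joined alpha-globin row and Mir3076, which has an infinite value, are not drawn. The 9 genes that fell lie between -2.21 and -0.55, and Podxl lies at 1.72.

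The genes of known pathways in the set mostly stayed uncalled. Only 26 of its 309 genes belonged to any of 16 pathway lists, and the lists of apoptosis and of cytokine receptor signalling had none. Of the heme and iron genes, Abcb10 stood at 11.8 and 10.1 FPKM (log2 fold change -0.23) and Steap3 at 4.95 and 4.41 (-0.17) in the authors' deposited table, and neither was called, nor did either pass an unadjusted p below 0.05. Over the whole list of 32 heme and iron genes 1 of 26 tested fell and none rose, beside 3 lower and 1 higher at an unadjusted p below 0.05, in the authors' deposited table. Of the 6 membrane genes 4 were tested and Kel fell, while Rhd stood at 6.48 and 3.81 FPKM (-0.77), Tmod1 at 24.2 and 22.1 (-0.13) and Gypc at 10.6 and 15.2 (0.52) in the authors' deposited table. Aqp3 and Tmcc2 were under 1 FPKM in J2E and were not tested in the authors' deposited table. Over all 29 tested membrane genes 4 fell and none rose, beside 11 lower and 2 higher at an unadjusted p below 0.05, in the authors' deposited table.

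Among regulators, Gata1 stood at 30.6 and 25.2 FPKM (-0.28) and Klf13 at 25.6 and 20.4 (-0.33) in the authors' deposited table. Over the whole list, 5 of 23 tested erythroid transcription factor genes fell and none rose in the authors' deposited table. Of these, 1 was higher at an unadjusted p below 0.05. Of 15 tested KLF and SP genes 5 fell and 2 rose in the authors' deposited table. Klf3 is itself a KLF family gene called as rising there, and J2E-KLF3-ER carries it as a fusion. Ctbp1, the gene of the corepressor that KLF3 recruits, stood at 41.1 and 34.7 FPKM (-0.24) by the authors' deposited table, and none of 39 tested chromatin and corepressor genes was called by the authors' q-value, with 1 lower and 1 higher at an unadjusted p below 0.05. Tfeb stood at 2.86 and 1.89 FPKM (-0.60) and Nr4a1 at 3.63 and 3.17 (-0.20) in the authors' deposited table. Fosl2 was not tested. Of 25 tested autophagy genes, the list that holds Tfeb, none was called and 1 was lower at an unadjusted p below 0.05 in the authors' deposited table. The immediate early list as a whole had 6 falling and 1 rising of 22 tested genes in the authors' deposited table.

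Cdk1 stood at 53.3 and 52.1 FPKM and Rb1 at 6.53 and 6.27 in the authors' deposited table, and 2 of 35 tested cell cycle genes fell. The ISG15-activating enzyme gene Uba7 stood at 66.5 and 73.7 FPKM (0.15) and Tapbp at 4.53 and 4.80 (0.08) in the authors' deposited table. Lgals3, encoding the lectin galectin, and Myl4, a myosin light chain gene, had KLF1 enrichments of 15.4 and 10.5, and neither was tested, with 1.33 and 0.196 FPKM in J2E in the authors' deposited table. The textbook KLF1 targets in the set included Fam132a, Hba-a1, Kel, Rhd and Tmcc2, of which Kel fell, beside 7 falling and 2 rising of 30 tested targets over the whole list, in the authors' deposited table. Of the lists with 1 to 3 genes in the set, the interferon and immune list had 3 falling of 12 tested, glycolysis 1 falling and 1 rising of 17, cytoskeleton and adhesion 2 falling and 1 rising of 23, ubiquitin and proteasome 1 each way of 27, and globins 1 falling of 6, in the authors' deposited table. Fam132a stood at 13.2 and 10.4 FPKM (-0.35) by the authors' deposited table.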

How the data were processed

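Chromatin was fixed with 0.4% formaldehyde, and RNA labelled with 500 µM 4-thiouridine was captured on streptavidin, per the labels' protocols. Per the submitters' processing notes, reads were handled on build mm9, and the tools named are MACS 1.4.2, MACS2 and TopHat2 2.0.10. Neither the role of each nor the tool of the RNA test is given in the sources used here. The deposited peak lists give for each peak an enrichment ratio, a summit, an annotation and the nearest start site. The RNA table has, per the file headers, 1 pooled FPKM value per line. It also has the authors' log2 fold change, p-value and q-value, and their test statistic, a score that was not used here. The depth of each library is unknown. The J2E-KLF3-ER libraries are of different clones, but whether the J2E libraries were separate cultures is not said in the labels, so their spread may be technical.

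The members, gene lists and tests were chosen with earlier results of these data known. The authors' q-value below 0.05 was the planned test. A test of values per library would have replaced it, but the RNA table holds no such values. Blank RNA rows (93) were dropped. Gene names turned into dates (2 genes of the set) were read back. Overlap meant at least 1 shared bp. The deposited distances to start sites follow the genome, and were turned to follow the strand. Shares carry 95% exact (Clopper-Pearson) intervals. The median of the chromosome was subtracted from fold changes as an alternative, and other overlap rules, thresholds and filters were tried. Named genes are the 10 highest and 3 lowest peaks, all called genes, up to 4 genes per list, the 3 most active genes, genes with several peaks (as examples) and the 3 nearest a KLF3 interval. Of these, 2 genes are not reported here. Calculations used Python 3.11.15, pandas 2.3.3, NumPy 2.4.6, SciPy 1.17.1 and matplotlib 3.10.9. The search for overlaps and gaps and a CCNCNCCC search were tested on simulated data, and the other calculations were not.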

Additional observations from a re-analysis of the deposited data

How the results depend on the processing

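Of 39 recomputed values 30 stayed near the reported value and 9 moved away from it. With KLF1 enrichment of at least 10, the set had 153 peaks, and 3 genes fell and 0 rose by the authors' q-value. At an unadjusted p below 0.05, 5 of these 65 tested genes were higher, and those lower were not counted. Over the whole set 29 of 166 tested genes were lower and 10 higher at that threshold. Counting genes with no KLF3 peak anywhere, 5 fell. At a q-value below 0.1, 2 rose. With a single KLF1 peak per gene the share classed up was 17.8%. In the 250 bases before the start site alone CCNCNCCC was in 83.9% of promoters. CpG-rich promoters made up 64.7% with a single listed promoter and 48.3% with the summit in the window. The median log2 fold change ranged from -0.14 to -0.12 over its alternatives, and was -0.14 after the median of each chromosome was subtracted. The alternatives for the class up, the chromosome and the CpG share were chosen after seeing the data. No paired analysis was possible because the RNA table holds 1 pooled value per line, and for the same reason no library could be left out. Peaks come from 1 pooled library per factor, so their spread between replicates is unknown, and the absence of a KLF3 peak says only that none was listed.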
